A study of Mus musculus with 32 samples.

Results

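The genes described are Cd3d, Cd3e, Cd3g, Cd4, Cd8a, Foxp3, Ctla4, Gzmb, Nkg7 and Il2rb, a group of T cell, regulatory T cell and natural killer (NK) cell genes. They were taken by symbol, and all 10 were among the 54532 genes of the count table. The RNA came from tibialis anterior, a fast muscle of the shin, of C57BL/6J mice. The 32 libraries formed 8 groups of 4. Young mice given vehicle, and old mice given vehicle, were each sampled uninjured and at days 7 and 35 after injury with barium chloride (BaCl in the labels), which kills muscle fibres and starts regeneration. Old mice given BI01, a senolytic by the labels, meaning a compound aimed at senescent cells, were sampled at days 7 and 35 after the same injury. No group was young with BI01, and none was uninjured with BI01. The labels named no allele beyond the strain and no age beyond young and old, and every injured group had the same injury. Columns of the uninjured groups carried PBS and the name of the 35-day set. For that reason, injury and collection set cannot be told apart wherever day 7 is compared with uninjured muscle. Time after injury and collection set likewise cannot be told apart wherever day 35 is compared with day 7. Separate animals were not stated for the libraries, so p-values measure the spread between these samples, which may be technical.

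T cells recognise antigen through a receptor whose variable chains cannot signal alone. The CD3 gamma, delta and epsilon chains, made from Cd3g, Cd3d and Cd3e, travel with the receptor and carry the signal into the cell. CD4 and CD8 are coreceptors that bind MHC class II and class I, and separate helper from cytotoxic T cells. Foxp3 is the transcription factor of regulatory T cells, a suppressive lineage that is known to gather in injured muscle and to aid its repair. Ctla4, an inhibitory receptor for CD80 and CD86, is abundant on those cells and on activated T cells. Gzmb encodes the protease granzyme B, Nkg7 a membrane protein of cytotoxic granules, and Il2rb the beta chain shared by the receptors for IL-2 and IL-15, which NK cells and activated T cells carry.

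The CD3 chain genes lie side by side on chromosome 9, and the letters in front of them are shown because the 3 genes did not follow the same course after injury. In mm10, as the deposited table gives it, Cd3g (ENSMUSG00000002033) spans 44969572 to 44980431 on the minus strand, Cd3d (ENSMUSG00000032094) 44981786 to 44987339 on the plus strand, and Cd3e (ENSMUSG00000032093) 44998740 to 45009627 on the minus strand. Cd3g and Cd3d face away from each other, with starts 1355 bases apart. The promoters of Gzmb and Nkg7 are shown because both cytotoxic genes rose together. Sequences are from RefSeq on GRCm38.p6, the assembly of mm10, the 250 bases before the RefSeq start without any that lie inside the deposited gene model, 5′ to 3′ on the gene's strand. A window was found for 7 of the 10 genes. Capitals mark 3 motifs searched on both strands, none overlapping another: an E-box (CACCTG), an ETS core (AGGAAG) and a RUNX core (TGTGGT).
Cd3g, chr9:44980432-44980681, minus strand: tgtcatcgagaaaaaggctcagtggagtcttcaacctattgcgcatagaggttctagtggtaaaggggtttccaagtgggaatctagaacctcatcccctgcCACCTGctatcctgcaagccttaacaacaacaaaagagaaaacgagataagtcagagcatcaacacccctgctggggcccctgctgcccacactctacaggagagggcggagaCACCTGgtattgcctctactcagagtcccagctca
Cd3d, chr9:44981536-44981785, plus strand: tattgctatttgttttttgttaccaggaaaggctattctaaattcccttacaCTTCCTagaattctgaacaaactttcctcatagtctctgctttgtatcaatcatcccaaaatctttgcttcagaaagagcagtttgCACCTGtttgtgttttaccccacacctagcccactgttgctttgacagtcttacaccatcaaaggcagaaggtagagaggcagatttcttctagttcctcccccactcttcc
Cd3e, chr9:45009628-45009861, minus strand: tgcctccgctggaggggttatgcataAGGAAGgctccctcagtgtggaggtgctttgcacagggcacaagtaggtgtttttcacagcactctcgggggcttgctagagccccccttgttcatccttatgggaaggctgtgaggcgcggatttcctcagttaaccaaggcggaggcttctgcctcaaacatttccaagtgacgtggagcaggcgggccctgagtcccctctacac
Gzmb, chr14:56262335-56262584, minus strand: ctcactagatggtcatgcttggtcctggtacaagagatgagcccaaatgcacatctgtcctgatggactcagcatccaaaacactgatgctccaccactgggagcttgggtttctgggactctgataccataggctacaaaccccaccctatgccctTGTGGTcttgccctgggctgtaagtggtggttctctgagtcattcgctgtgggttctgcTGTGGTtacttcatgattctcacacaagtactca
Nkg7, chr7:43436888-43437072, plus strand: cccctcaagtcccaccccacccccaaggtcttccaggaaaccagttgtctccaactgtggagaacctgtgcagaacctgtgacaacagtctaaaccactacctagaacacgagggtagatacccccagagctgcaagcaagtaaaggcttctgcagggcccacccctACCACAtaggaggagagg

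The E-box was present 2 times before Cd3g, 1 time before Cd3d and 0 times in the Cd3e window. The ETS core was present 1 time each before Cd3d and Cd3e, and the RUNX core 2 times before Gzmb and 1 time before Nkg7. Of 32851 mouse windows of 250 bases before a RefSeq start, 17.2% held the E-box, 29.5% the ETS core and 14.0% the RUNX core. The windows of Cd3e and Nkg7 were shorter, at 234 and 185 bases, because their RefSeq start lies 16 and 65 bases inside the deposited gene. A match is a run of letters and not a shown binding site. The windows of Cd8a and Foxp3 held 0 of the 3 motifs. That says only that these letters were not in those windows.

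Total counts were 14129350 to 30439358 per library, and 17121 genes passed the count filter. Values are counts per 1e6 counts (CPM) after TMM scaling, with factors of 0.673 to 1.87. Genes were tested by edgeR's quasi-likelihood test with Benjamini-Hochberg adjustment over all 17121 genes, and called at an adjusted p under 0.05. Changes and differences are log2 fold changes of that fit, with a standard error (SE), and hold relative to its scaling. When libraries were scaled by their totals only, the day 7 median over all genes was 1.05 in young and 1.15 in old muscle in place of 0.17 and 0.14. The 8 fast-fibre markers checked were all detected in every group. Their summed level was 223642 to 229340 CPM in old uninjured muscle and 10960.6 to 66231 CPM in old vehicle muscle at day 7.

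The members were sparse. The largest count of any member in a library was 463 (Il2rb, old BI01 muscle at day 7). Of the 10 genes, 9 passed the filter, and Ctla4 did not. With the 12 day 7 libraries left out, only Cd3e and Foxp3 passed in the other 20. The other 7 tested members were therefore tested because they were high at day 7, and their counts of calls describe them without adding support.

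At day 7 most of these genes stood far above uninjured muscle. In young muscle 7 of 9 tested members were higher (Cd3e, Cd3g, Cd4, Cd8a, Gzmb, Nkg7 and Il2rb), and in old vehicle muscle also 7 of 9 (Cd3d, Cd3g, Cd4, Cd8a, Gzmb, Nkg7 and Il2rb). None was lower in either. Of all tested genes, 60.8% were called in young and 64.2% in old muscle. Higher calls made up 33.3% and 34.4% of all genes, and lower calls 27.5% and 29.8%. With library size alone the higher share was 59.6% and 62.9% and the lower 8.69% and 10.3%. All 4 day 7 libraries lay above all 4 uninjured libraries for 6 members in young and 5 in old muscle, against 27.2% and 29.1% of all tested genes. In whole muscle, more cells of a type and more RNA per cell cannot be told apart. The plot of levels by library shows all 10 genes.

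**Figure D1:**
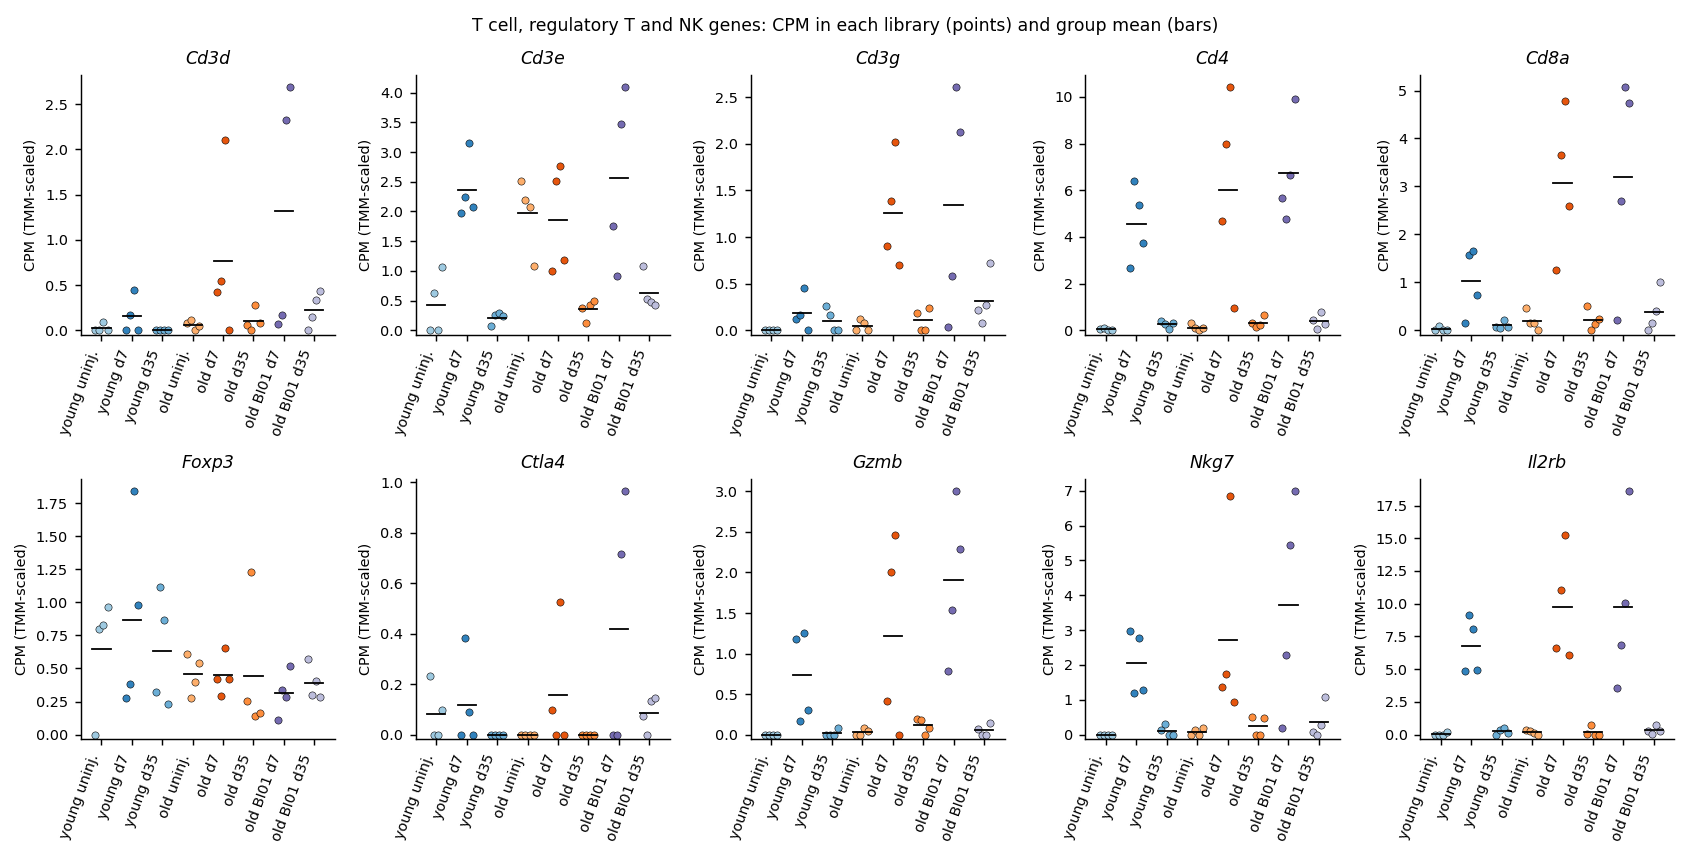
CPM of each gene (y axis) in the 8 groups (x axis), with 1 point per library and a bar at the group mean. For Cd4 and Il2rb all 12 day 7 points lie above all 20 others, whereas Foxp3 has no such step and Cd3e in old uninjured muscle is as high as at day 7.

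Cd3d and Cd3g, which encode the delta and gamma chains, had 0 to 10 counts in every library outside day 7. In young uninjured libraries 1 to 4, Cd3g had 0 counts throughout, and Cd3d had 1 count in library 3. Young libraries 4 to 7 at day 7 held 0.119, 0.170, 0.449 and 0 CPM of Cd3g. The day 7 libraries thus overlapped the uninjured ones through library 7. Against a floor of 3 counts over the uninjured group, Cd3g was at least 2.94-fold higher (adjusted p = 0.0389). That call was lost when any 1 young uninjured library was left out (adjusted p 0.0658 to 0.0748), or day 7 library 6 (4.02, adjusted p = 0.112). It was also lost with limma voom (1.74, adjusted p = 0.311). Cd3d, at 0, 0.170, 0.449 and 0 CPM at day 7, was not called in young muscle (adjusted p = 0.23). Its ratio of 14 counts to 1 was 7.26, with an exact 95% interval of 1.11 to 307 that covers counting error only.

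In old vehicle muscle both genes were called. Cd3g stood at 0, 0.119, 0.0800 and 0 CPM in uninjured libraries 6 to 9 and at 0.903, 1.39, 2.02 and 0.705 CPM in day 7 libraries 7 to 10. The ranges did not overlap, and the change was 4.40 (SE 1.18, adjusted p = 0.00188). It was 5.46 without uninjured library 7. Cd3d stood at 0.0763, 0.119, 0 and 0.0452 CPM uninjured and at 0.419, 0.548, 2.11 and 0 CPM at day 7, so that library 10 fell among the uninjured ones. Its change was 3.42 (SE 1.32, adjusted p = 0.0251). The Cd3d call was lost without uninjured library 8 (3.13) or 9 (3.27), at an adjusted p of 0.0610 for each. It was also lost without day 7 library 9 (2.22, adjusted p = 0.153) and with limma voom (2.06, adjusted p = 0.193).

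Cd3e, which encodes the epsilon chain that pairs with each of the other two, followed another course. Young uninjured libraries held 0, 0.623, 0 and 1.06 CPM, and young day 7 libraries 1.98, 2.25, 3.14 and 2.08 CPM. All 4 were higher than the uninjured ones, with a change of 2.51 (SE 0.67, adjusted p = 0.00183). The change was 3.50 without young uninjured library 4. In old muscle the uninjured level was already there, at 2.52, 2.19, 2.08 and 1.08 CPM, against 0.999, 2.52, 2.76 and 1.18 CPM in the vehicle group at day 7. These ranges overlapped almost completely. The difference was -0.07 (95% confidence interval -1.25 to 1.10, adjusted p = 0.921), and 0.90 with library size alone, also without a call.

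Across all 8 groups, Cd3e was highest in old BI01 muscle at day 7 (2.56 ± 1.48 CPM, SD, n = 4). Next were young muscle at day 7 (2.36 ± 0.533), old uninjured muscle (1.97 ± 0.617) and old vehicle muscle at day 7 (1.86 ± 0.906). The other groups followed with BI01 at day 35 (0.625 ± 0.305), young uninjured (0.421 ± 0.518), old vehicle at day 35 (0.353 ± 0.159) and young at day 35 (0.214 ± 0.102). Each group overlapped its neighbour in this order.

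The ratio of the chains ranged widely over the groups. Per kilobase of gene model, the level of Cd3e was 17.0 times the mean level of Cd3d and Cd3g in old uninjured muscle, and 1.14 times in old vehicle muscle at day 7. By library the ratio was 29.4, 10.5, 41.7 and 21.4 in the old uninjured group and 0.966, 1.70, 0.762 and 2.67 at day 7. The 2 sets did not overlap, but the old uninjured ratios rested on 1, 6, 1 and 1 counts of Cd3d and Cd3g together. Young uninjured muscle had a ratio of 16.01 and young muscle at day 7 one of 7.86, both on few Cd3d and Cd3g counts. BI01 muscle at day 7 had a ratio of 1.12, with 47 counts of Cd3e against 3 of Cd3d and Cd3g together in library 1. These ratios were chosen after the values were seen and were not tested.

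A second gene sits inside Cd3e. Gm48719, listed on the opposite strand from 44999429 to 45002985, had 209 counts in all libraries. Whether the counting used strand is not given in the sources used here, so reads of the pair cannot be told apart. Gm48719 stood at 0.757 ± 0.146 CPM in old uninjured muscle, 0.142 ± 0.168 in young uninjured, 0.786 ± 0.139 in young at day 7 and 0.247 ± 0.267 in old vehicle at day 7 (SD, n = 4). It was thus high in 2 of the groups in which Cd3e was high relative to Cd3d and Cd3g. Young uninjured muscle also had a high ratio (16.01, on few counts), but Gm48719 was low there. The part of Gm48719 in the Cd3e counts was not tested. The receptor chain constants, which were also looked up after the values were seen, were near 0 in old uninjured muscle. Trac, Trbc1 and Trbc2 had 5, 7 and 3 counts there over 4 libraries, against 121, 171 and 195 in old vehicle muscle at day 7.

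**Figure D2:**
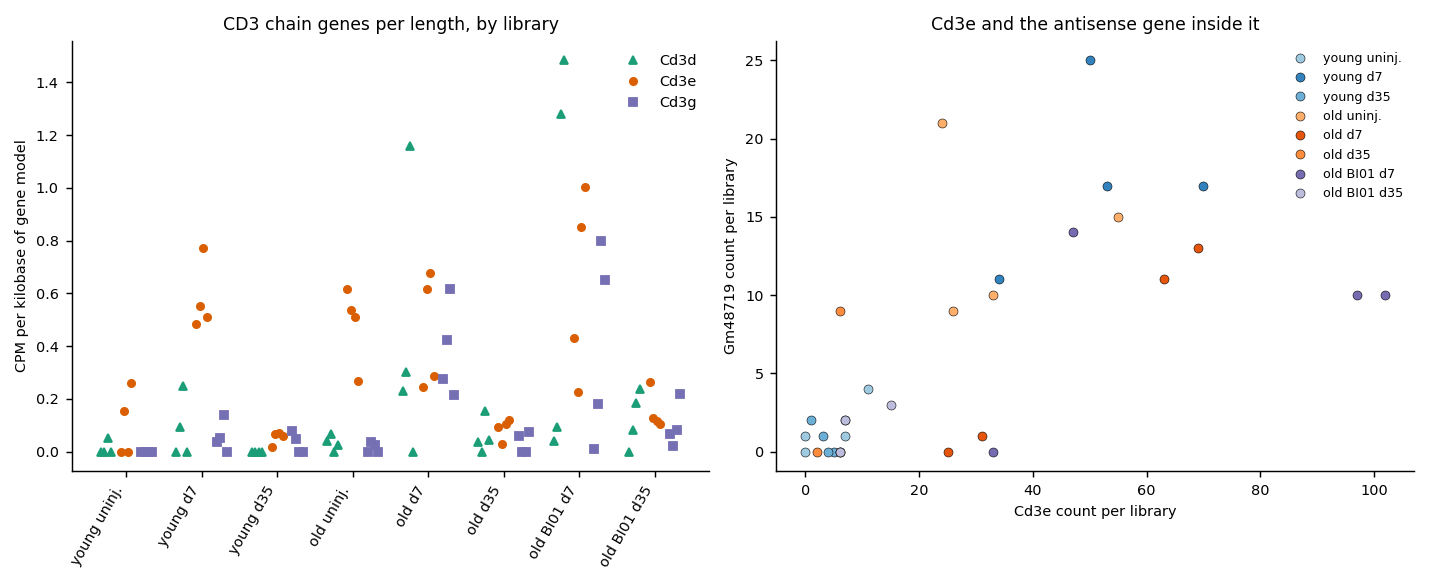
Left, CPM per kilobase of gene model (y axis) for Cd3d, Cd3e and Cd3g in each library of the 8 groups (x axis); right, Gm48719 count against Cd3e count, with 1 point per library coloured by group. In old uninjured muscle Cd3e stands apart from Cd3d and Cd3g, and the same libraries hold 9 to 21 counts of Gm48719.

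Cd4, the helper coreceptor (ENSMUSG00000023274, chromosome 6, 124864692 to 124888221, minus strand), made one of the clearest steps. Young uninjured libraries held 0.0773, 0.0890, 0 and 0 CPM, and young day 7 libraries 2.69, 6.40, 5.39 and 3.73 CPM. The groups were far apart, with a change of 6.50 (SE 0.86, adjusted p = 1.21e-07) and a ratio of counts of 104 (exact 95% interval 28.5 to 860). In old muscle Cd4 went from 0.305, 0.0796, 0 and 0.0904 CPM to 4.67, 8.001, 10.4 and 0.941 CPM. All day 7 libraries were higher, although library 10 lay well below its group, and the change was 5.66 (SE 0.71, adjusted p = 3.77e-08). It was 6.38 without uninjured library 6. Some mouse dendritic cells also carry Cd4. The summed dendritic cell markers stood at 9.34 to 11.4 CPM in young uninjured and 25.3 to 52.5 CPM in young day 7 libraries, and their part in the Cd4 values was not tested.

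Cd8a (ENSMUSG00000053977, chromosome 6, 71373427 to 71379173, plus strand) encodes the alpha chain of the cytotoxic coreceptor. It had 1 count in the 4 young uninjured libraries and stood at 0.158, 1.57, 1.66 and 0.734 CPM at day 7, all higher. The change was 5.18 (SE 1.36, adjusted p = 0.00153). With limma voom this was no call (3.70, adjusted p = 0.0635), and it was 7.30 without uninjured library 2, the one with the count. Old uninjured libraries held 0.458, 0.159, 0.160 and 0 CPM and old vehicle day 7 libraries 1.26, 3.65, 4.78 and 2.59 CPM. These did not overlap, with a change of 4.06 (SE 0.94, adjusted p = 0.000415) that was 4.83 without uninjured library 6. Per kilobase, the level of Cd4 was 4.01 times that of Cd8a in young muscle at day 7 and 1.85 times in old vehicle muscle. By library it was 15.3, 3.68, 2.93 and 4.59 times in young and 3.35, 1.98, 1.97 and 0.328 times in old vehicle muscle. The groups overlapped, and young library 4 held 4 counts of Cd8a. This ratio was not tested.

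Foxp3 had no detectable step at day 7. Young uninjured libraries held 0, 0.801, 0.828 and 0.965 CPM and young day 7 libraries 0.277, 0.382, 1.84 and 0.979 CPM. In old muscle the values were 0.610, 0.279, 0.400 and 0.542 CPM uninjured and 0.419, 0.292, 0.658 and 0.423 CPM at day 7. Both pairs of groups overlapped. The change was 0.43 (SE 0.75, adjusted p = 0.633) in young and -0.02 in old muscle, with a 95% interval of -1.56 to 1.51 in the latter, where library size alone gave 0.97 without a call. Over all groups the mean of Foxp3 lay between 0.314 and 0.870 CPM. Foxp3 (ENSMUSG00000039521, X chromosome, 7579676 to 7595243, plus strand) overlaps Flicr on the same strand, so its counts are uncertain. Flicr had 27 counts in young uninjured muscle and 14 in young muscle at day 7. In old vehicle muscle Flicr had 26 and 16. Flicr was not called in either comparison by edgeR (-1.95, adjusted p = 0.0745, and -0.96, adjusted p = 0.371). Gm36995, listed on the opposite strand from 7558602 to 7605381, spans the whole of Foxp3. Gm36995 had 0 counts in young uninjured muscle and 33 in young muscle at day 7. In old vehicle muscle it had 16 and 21. Ccdc22, which also overlaps Foxp3, had 0 counts. The part of these genes in the Foxp3 counts was not tested.

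Ctla4 (ENSMUSG00000026011, chromosome 1, 60887000 to 60915832, plus strand) did not pass the filter. It had 4 counts in young uninjured muscle, 11 in young muscle at day 7, 0 in old uninjured muscle and 15 in old vehicle muscle at day 7. Of those 15, library 9 held 12 and library 7 held 3, and the other two held 0. Against the floor of 3 counts over the group, Ctla4 was at least 3.55-fold higher in old vehicle muscle at day 7 than uninjured. In the fit without a filter its adjusted p was 0.0591, no call. BI01 muscle at day 7 had 44 counts, all in libraries 3 and 4.

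The cytotoxic genes went from near 0 to measured levels in most day 7 libraries. Nkg7 (ENSMUSG00000004612, chromosome 7, 43437073 to 43438249, plus strand) had 0 counts in all 4 young uninjured libraries and 2.96, 1.19, 2.78 and 1.28 CPM in the young day 7 libraries. It was at least 32.2-fold higher by the floor (adjusted p = 0.000555). In old muscle Nkg7 went from 0, 0.119, 0 and 0.181 CPM to 1.35, 1.75, 6.84 and 0.941 CPM. The groups did not overlap, and library 9 stood far above the others. The change was 4.81 (SE 1.17, adjusted p = 0.000847), 3.81 without library 9 and 5.46 without uninjured library 9.

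Gzmb (ENSMUSG00000015437, chromosome 14, 56258838 to 56262260, minus strand) also had 0 counts in young uninjured muscle and reached 1.19, 0.170, 1.26 and 0.306 CPM at day 7, at least 11.6-fold higher (adjusted p = 0.00128). In old muscle it had 2 counts uninjured, and 0.419, 2.01, 2.46 and 0 CPM at day 7. Library 10 had none, so the groups overlapped. The ratio of counts was 44.1, with an exact 95% interval of 11.9 to 368 (adjusted p = 0.000509). Without uninjured library 8 the log2 change was 5.73 in place of 5.14.

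Il2rb (ENSMUSG00000068227, chromosome 15, 78479256 to 78495271, minus strand) had the highest CPM of the members at day 7. Young libraries went from 0, 0, 0 and 0.193 CPM to 4.86, 9.16, 8.08 and 4.95 CPM, and old libraries from 0.381, 0.279, 0.160 and 0 CPM to 6.61, 11.03, 15.2 and 6.11 CPM. No day 7 library overlapped an uninjured one. The changes were 7.05 (SE 1.01, adjusted p = 5.85e-07) and 5.59 (SE 0.78, adjusted p = 3.19e-07). The young change was 10.01 without uninjured library 4, which held both of the group's counts.

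**Figure D3:**
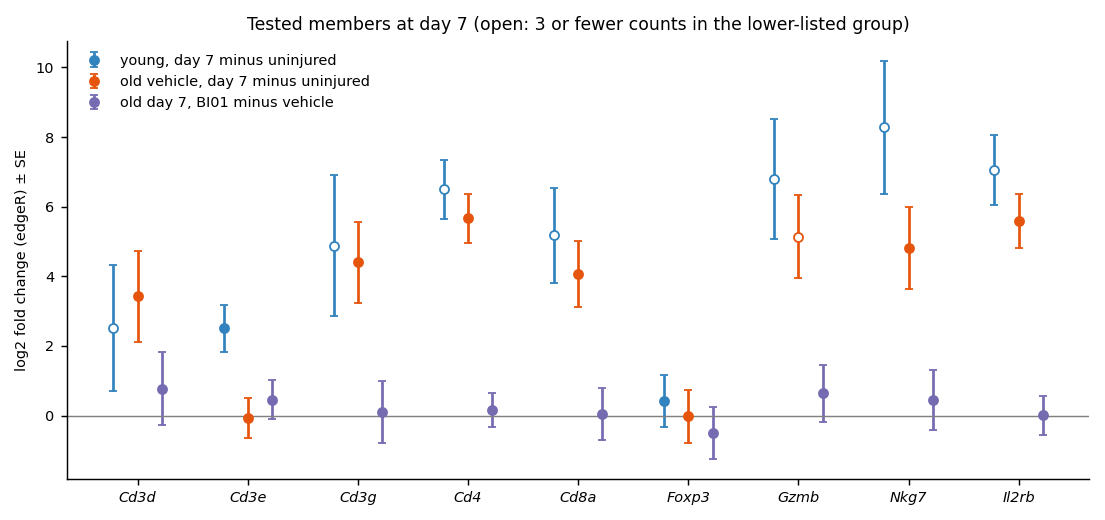
Fitted log2 fold change with its SE (y axis) for the 9 tested genes (x axis) in young muscle, day 7 minus uninjured, in old vehicle muscle, day 7 minus uninjured, and in old muscle at day 7, BI01 minus vehicle. Open circles have at most 3 counts in the lower-listed group, and their fitted value depends on the prior count; the BI01 points lie near 0 and the day 7 points lie between 2.51 and 8.28 except those of Foxp3 and of Cd3e in old muscle.

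Other genes of the same pathways, from lists written with earlier results of these data known, also changed at day 7. Among 14 receptor chain and proximal signalling genes, 10 were higher in young and 12 in old muscle at day 7, and none was lower. The median change was 4.53 and 4.65, or 2.77 and 4.26 with genes at 0 counts set to their floor, against 0.17 and 0.14 over all genes. Lck, the kinase that phosphorylates the CD3 chains, stood at 2.00 ± 0.748 CPM in young muscle at day 7 and 0.0802 ± 0.110 uninjured (SD, n = 4). In the old groups Lck stood at 3.27 ± 1.35 and 0.105 ± 0.0826 CPM.

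Of 14 NK and cytotoxic genes, 12 were higher in young and all 14 in old muscle, against 33.3% and 34.4% of all tested genes. With the day 7 libraries left out, 1 of these 14 genes passed the filter, and 5 of the 14 receptor and signalling genes. As with the members, these counts of calls describe genes tested through day 7 and add no support. Their median was 7.03 and 5.74, or 4.08 and 5.22 with genes at 0 counts at their floor. Gzma, encoding granzyme A, stood at 2.84 ± 1.22 CPM in young muscle at day 7 with 1 count in the uninjured group. Klrk1, encoding the activating receptor NKG2D, stood at 3.56 ± 0.726 CPM with 0 counts uninjured, at least 54.3-fold higher. Ncr1, encoding the NK receptor NKp46, was at least 19.2-fold higher. In the list of T cell cytokines and their receptors, 4 of 10 tested genes were higher and 2 lower in young muscle, and 6 higher and 3 lower in old muscle. Il2rg, whose product pairs with that of Il2rb, rose by 4.66 in young and 4.47 in old muscle. Stat5b, a signal transducer of the same receptors, fell by 2.93 and 2.25. The summed level of that list had a median of 1069 CPM in young uninjured and 212 CPM in young day 7 libraries. Fast-fibre markers fell in the same libraries, and their part in the Stat5b and summed values was not tested. Of 7 tested helper lineage genes, 2 were higher and 1 lower in young muscle, and 2 higher and 2 lower in old muscle. Among all tested genes 33.3% and 34.4% were called higher, and 27.5% and 29.8% lower. The helper lineage counts, and the cytokine and receptor counts in young muscle, lay near those shares. These counts do not set the lists apart from all genes.

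In the regulatory T cell list, changes went both ways. Of 9 genes, 4 were higher and 1 lower in young muscle, and 6 higher and 1 lower in old muscle, with medians of 1.39 and 1.43 (1.17 in young with genes at 0 counts at their floor). The young count of 4 is near the 33.3% of all tested genes called higher. With the day 7 libraries left out, 6 of these 9 genes passed the filter. Calls of the others describe genes tested through day 7 and add no support. Tnfrsf18, encoding the receptor GITR, rose by 1.39 in young muscle, and Il10, an anti-inflammatory cytokine, was at least 4.84-fold higher by the floor. Ikzf2, encoding Helios, fell by 1.81 in old muscle, from 16.6 ± 1.45 to 4.76 ± 2.14 CPM. Fast-fibre markers fell in the same libraries, 6 of 8 in young and all 8 in old muscle, and their part in this value was not tested.

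Markers of other cells moved too. All 8 macrophage markers were higher at day 7 in both ages, with a summed level of 18.5 to 122 CPM in young uninjured and 588 to 1150 CPM in young day 7 libraries. Dendritic cell markers were higher in 5 of 7 and 6 of 7, and all 6 mast cell markers in both. With the day 7 libraries left out, all 8 macrophage, 4 of 7 dendritic cell and 5 of 6 mast cell markers passed the filter. The others were tested through day 7, and their calls add no support. Of the neutrophil markers, 2 of 4 tested were higher in young and 1 of 4 in old muscle, against 33.3% and 34.4% of all tested genes. Their summed level was 0.579 to 1.10 CPM in young uninjured and 9.17 to 16.5 CPM in young day 7 libraries. In old muscle it was 1.60 to 8.41 CPM uninjured and 14.3 to 20.8 CPM in the vehicle group at day 7. The median change of the 4 tested was -0.22 in old muscle. B cell and plasma cell markers summed to between 0.920 and 8.35 CPM over the 32 libraries. Of the 3 tested, 1 was higher in young muscle, and 1 was higher and 1 lower in old muscle. The 6 lymph node markers summed to 0.0452 to 1.22 CPM in old uninjured, 0.870 to 3.25 CPM in old vehicle day 7 and 0.111 to 4.12 CPM in BI01 day 7 libraries. The 1 tested, Cxcl13, differed by 2.02 in old muscle at day 7 without a call (adjusted p = 0.075), and Ccl19 had 0 counts in all 3 day 7 groups. Both were looked up after the values were seen, and Cxcl13 passed the filter only with the day 7 libraries. From day 7 to day 35 Cxcl13 was called lower in old vehicle muscle, with 0 counts at day 35, and in BI01 muscle (-6.26). There 31.4% and 29.4% of all tested genes were called lower. In young muscle Cxcl13 was not called (-1.38). The part of these cell types in the members' values was not tested.

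**Figure D4:**
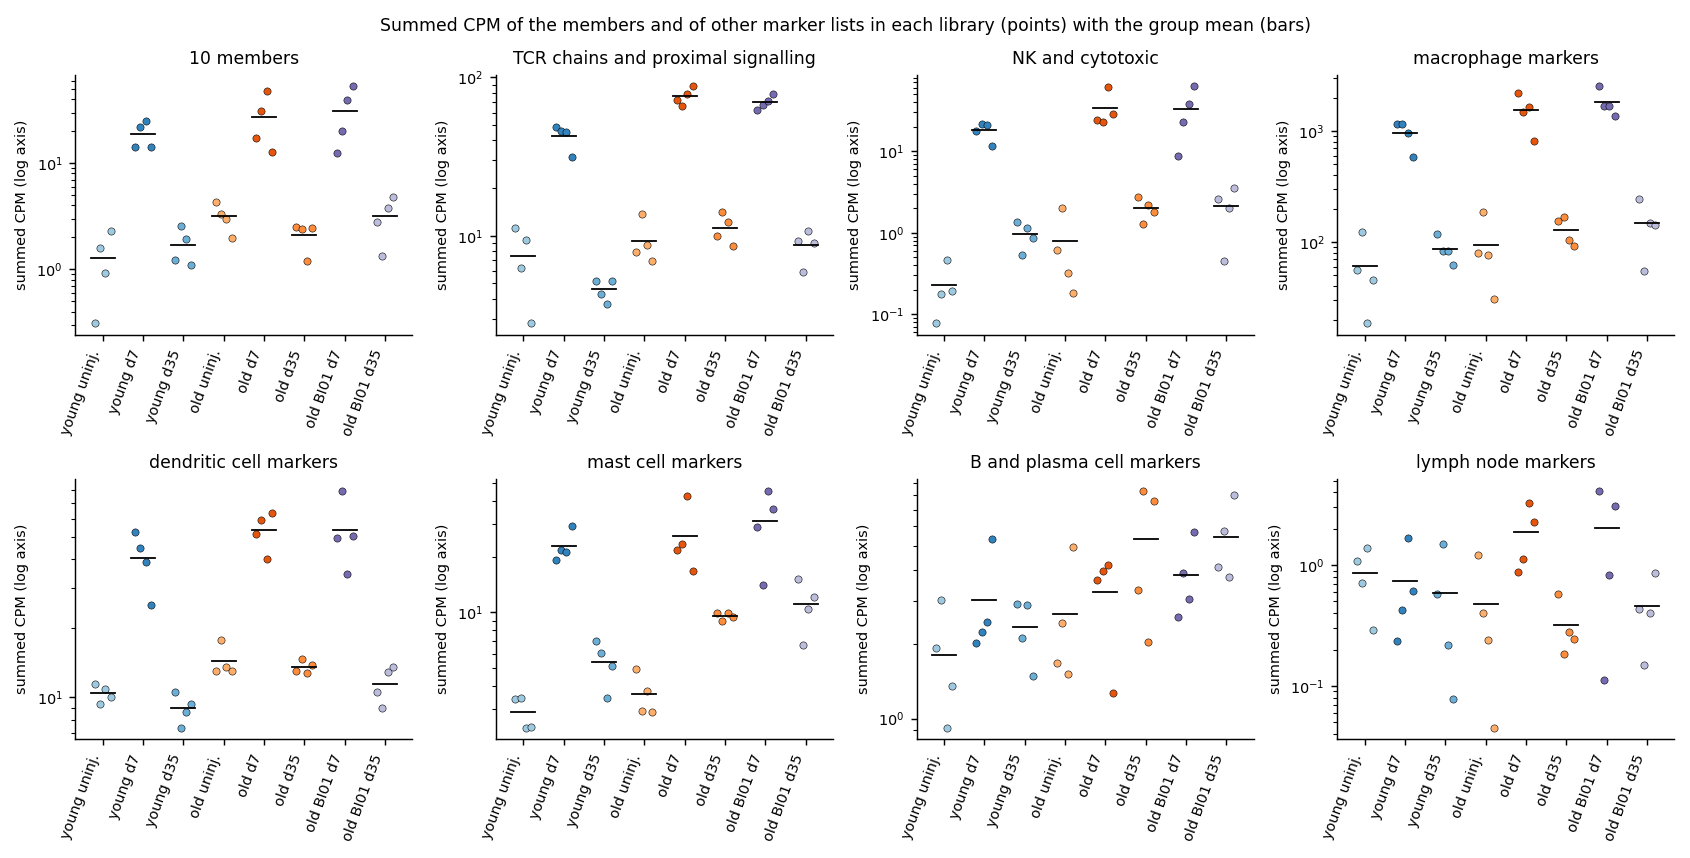
Summed CPM on a log axis (y axis) of the 10 genes and of 7 marker lists in each library (points) of the 8 groups (x axis), with bars at group means. The members, the receptor list, the NK list and the macrophage, dendritic and mast cell lists rise at day 7, and the B cell list lies between 0.920 and 8.35 CPM.

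By day 35 the step had largely gone. Against day 7, 6 of 9 tested members were lower in young muscle, where 55.3% of all genes were called and 29.3% were lower. It was 7 of 9 in old vehicle muscle (58.9% and 31.4%) and 6 of 9 in old BI01 muscle (55.6% and 29.4%). With library size alone these lower shares of all genes were 50.3%, 62.1% and 59.3%. Cd3e, Cd4, Cd8a, Gzmb, Nkg7 and Il2rb fell in all 3 series, and Cd3g also in old vehicle muscle. Il2rb stood at 0, 0.372, 0.505 and 0.157 CPM in young muscle at day 35, with a change from day 7 of -4.66 (adjusted p = 5.81e-06). It stood at 0.0635, 0.737, 0 and 0 CPM in old vehicle muscle, where the change was -5.45 (adjusted p = 6.69e-07), or -8.34 without day 35 library 7.

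Cd4 stood at 0.387, 0.266, 0.0722 and 0.314 CPM in young, 0.318, 0.123, 0.211 and 0.648 CPM in old vehicle and 0.432, 0.0747, 0.804 and 0.287 CPM in old BI01 muscle at day 35. All 12 values lay below every day 7 value. Of all tested genes 25.8%, 26.5% and 28.3% had no overlap in that direction in the 3 series. The changes from day 7 were -4.09 (adjusted p = 3.08e-06), -4.23 (adjusted p = 1.14e-06) and -4.04 (adjusted p = 1.86e-06), the last -4.63 without BI01 day 35 library 8. For Cd3e they were -3.43, -2.40 and -2.02 in the same order. Calls resting on single settings were Nkg7 in old vehicle muscle, lost without day 7 library 9 (-2.44, adjusted p = 0.0512), and with limma voom Gzmb in old vehicle (-2.07, adjusted p = 0.142) and Cd8a in young muscle (-2.64, adjusted p = 0.14).

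Cd3d was not called from day 7 to day 35 in the 3 series (adjusted p = 0.0639 in young, 0.0619 in old vehicle and 0.0756 in BI01 muscle). It passed with library size alone, at -4.92 (adjusted p = 0.0302), -3.70 (adjusted p = 0.012) and -3.30 (adjusted p = 0.0164), and in young muscle also with DESeq2 (-3.75, adjusted p = 0.0462). Cd3d also passed without any 1 of a few libraries: young day 7 library 4 or 7 or old vehicle day 7 library 10 in young muscle, old vehicle day 35 library 8 or day 7 library 10 in old vehicle muscle, and BI01 day 7 library 1 or 2 in BI01 muscle. Cd3g in BI01 muscle, not called at an adjusted p of 0.0781, passed with library size alone (-2.89, adjusted p = 0.012), and without BI01 day 35 library 9 or day 7 library 1.

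Foxp3 was low at day 35 too, at 0.323, 1.12, 0.866 and 0.235 CPM in young, 0.254, 1.23, 0.141 and 0.162 CPM in old vehicle and 0.575, 0.299, 0.402 and 0.287 CPM in BI01 libraries. Against day 7 it was not called in any of the 3 (-0.43, 0.03 and 0.31, the last 2 at -0.92 and -0.54 with library size alone). Ctla4 had 0 counts at day 35 in young and in old vehicle muscle, and 5 counts in BI01 muscle.

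Set against uninjured muscle, day 35 left 1 called member. Cd3e in old vehicle muscle at day 35 stood at 0.381, 0.123, 0.422 and 0.486 CPM, below all 4 old uninjured libraries, as were 9.98% of all tested genes. The change was -2.47 (SE 0.67, adjusted p = 0.0227), where 5.64% of all genes were called, and 2.47% as lower. The call was lost without old uninjured library 6 (-2.33, adjusted p = 0.0564) or 8 (-2.44, adjusted p = 0.0517). It was lost too without day 35 library 6 (-2.52, adjusted p = 0.0562), 7 (-2.18, adjusted p = 0.0939) or 8 (-2.58, adjusted p = 0.0513), and with limma voom (-2.42, adjusted p = 0.0732). Gm48719 inside Cd3e changed by -2.23 in the same edgeR comparison without being called (adjusted p = 0.309). Its part in the Cd3e change was not tested. In young muscle 0 of 9 members were called at day 35 by edgeR, DESeq2 or limma voom, against 15.7% of all genes. At an unadjusted p under 0.05 edgeR listed 1, Cd4. Higher and lower shares of all genes were 7.06% and 8.66%, and 15.1% and 4.13% with library size alone.

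Age made 1 call. In uninjured muscle, Cd3e stood at 2.52, 2.19, 2.08 and 1.08 CPM in old and 0, 0.623, 0 and 1.06 CPM in young libraries. All old libraries were above all young ones, with old library 9 and young library 4 nearly equal, and 10.5% of all tested genes showed the same lack of overlap. The difference was 2.24 (SE 0.67, 95% interval 0.86 to 3.62, adjusted p = 0.0245). Of all genes 13.4% were called, 5.79% as higher and 7.65% as lower, and with library size alone 11.4% and 3.22%. The call was lost without young library 1 (1.80, adjusted p = 0.0928) or 3 (1.83, adjusted p = 0.100), and without old library 6 (2.10, adjusted p = 0.0593) or 7 (2.18, adjusted p = 0.0560). DESeq2 and limma voom each called the same 1 member. The other 8 tested members had 0 to 28 counts over the young group and 2 to 32 over the old group, the most in each being Foxp3. Gm48719 inside Cd3e was 2.42 higher in old muscle without being called (adjusted p = 0.177).

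At day 7 no member was called between old vehicle and young muscle (0 of 9 by edgeR, DESeq2 and limma voom), where 2.43% of all genes were. Of all genes 0.251% were called higher and 2.18% lower, and 3.56% and 0.596% with library size alone. At an unadjusted p under 0.05 edgeR listed 1, Cd3g, whose 4 old libraries (0.903, 1.39, 2.02 and 0.705 CPM) were all above the 4 young ones (0.119, 0.170, 0.449 and 0 CPM), as in 2.68% of all tested genes. Its difference was 2.69 (95% interval 0.65 to 4.73, adjusted p = 0.133). For Cd8a the interval ran from -0.03 to 3.16. At day 35, 0 of 9 were called between the ages by the 3 tools, with 0 at an unadjusted p under 0.05 in edgeR, against 3.51% of all genes.

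Whether the day 7 response itself differed with age was tested as a difference of differences, in which the uninjured groups are shared with the comparisons above. In edgeR 0 of 9 members passed, against 7.7% of all genes, and 1 was listed at an unadjusted p under 0.05. Of all genes 3.22% were higher and 4.48% lower, and 3.84% and 3.27% with library size alone. That 1 was Cd3e, whose response was smaller in old muscle by 2.58 on the log2 scale (difference -2.58, SE 0.88, 95% interval -4.38 to -0.78, adjusted p = 0.0661). DESeq2 gave -2.53 (adjusted p = 0.0207) and limma voom -3.80 (adjusted p = 0.0229), both past the threshold. So did edgeR without young uninjured library 4 (-3.57, adjusted p = 0.0137) or without old day 7 library 9 (-2.83, adjusted p = 0.0425). Gm48719 inside Cd3e went the same way in edgeR, at -4.06 (SE 1.56), without being called (adjusted p = 0.1). Reads of the pair cannot be told apart, and the part of Gm48719 in the Cd3e difference was not tested.

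BI01 made no difference that could be detected in any member. At day 7, 0 of 9 members and 0 of 17121 genes were called by edgeR against old vehicle muscle (0% of all genes). At an unadjusted p under 0.05 edgeR listed 0 members and 1126 genes, DESeq2 called 1 gene and limma voom 0. DESeq2 listed 0 members and limma voom 1 (Gzmb) at that unadjusted threshold. The libraries were wide apart within the BI01 group: Nkg7 stood at 0.187, 2.28, 5.44 and 6.99 CPM in libraries 1 to 4, Cd8a at 0.225, 2.70, 5.08 and 4.74 CPM, and Il2rb at 3.60, 6.82, 10.02 and 18.6 CPM. Each spanned the range of the vehicle group. The 95% intervals of the difference were -1.32 to 2.23 for Nkg7, -1.47 to 1.58 for Cd8a, -1.14 to 1.14 for Il2rb, -0.84 to 1.17 for Cd4 and -1.05 to 2.32 for Gzmb. They ran from -1.39 to 2.92 for Cd3d, -0.70 to 1.61 for Cd3e, -1.72 to 1.91 for Cd3g and -2.02 to 1.01 for Foxp3. A fall by 2-fold lay outside the intervals of Cd3e and Cd4, and a rise by 2-fold lay inside all of them.

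At day 35, BI01 muscle again had 0 of 9 members and 0 of 17121 genes called by edgeR, with 0 members and 530 genes at an unadjusted p under 0.05. DESeq2 called 12 genes and limma voom 0, and neither called a member. Cd3d stood at 0, 0.149, 0.335 and 0.430 CPM in BI01 libraries 6 to 9 and 0.0635, 0, 0.281 and 0.0810 CPM in vehicle libraries. Cd3g stood at 0.216, 0.0747, 0.268 and 0.717 against 0.191, 0, 0 and 0.243 CPM. Both overlapped, and their intervals were -1.72 to 3.90 and -0.85 to 3.95. For the other tested members, the differences lay between -1.04 (Gzmb) and 0.83 (Cd3e). Every adjusted p was 1. In the difference between the BI01 effects at both days 0 of 9 were called in edgeR, and 0 at an unadjusted p under 0.05.

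Single libraries carried much of the spread at day 7. In old vehicle muscle, library 9 was the highest for all 10 members, at a summed 47.8 CPM against 12.9 to 31.2 in the others, and library 10 was the lowest for 6. In BI01 muscle, library 1 was the lowest for 7 members (summed 12.4 CPM) and library 4 the highest for 7 (53.0 CPM). Over all 32 libraries, log2 CPM of Cd3d and Cd3g had a Pearson correlation of 0.80, and that of Cd3e with either 0.48 and 0.47. Cd4 and Il2rb had one of 0.90, and Foxp3 lay between -0.04 and 0.18 with each of the others. These values describe libraries that share the day 7 step and their depth.

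By the same measure, the genes most like the mean of the CD3 chains over 32 libraries were Cxcr3 (Pearson 0.88), Mum1 (0.84), Ms4a4b (0.84), Pik3cd (0.83) and Psmb9 (0.83). Those most like the mean of Nkg7, Il2rb and Gzmb were Gzma (0.95), H2-DMa (0.95), Mx1 (0.94), Ciita (0.94) and Cd74 (0.94). Cxcr3 encodes a chemokine receptor of activated T and NK cells, Pik3cd a lipid kinase of leukocytes, and H2-DMa, Ciita and Cd74 belong to MHC class II antigen presentation. Part of each correlation is the day 7 step that these genes share, and it is given as a description. Taken around the group means, the correlations were lower. In the same order they were 0.66, 0.47, 0.58, 0.46 and 0.53 with the CD3 chains. With Nkg7, Il2rb and Gzmb they were 0.58, 0.61, 0.54, 0.53 and 0.64.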

How the data were processed

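RNA-seq was done on whole tibialis anterior muscle. Per the submitters' processing notes, reads were aligned with HISAT2 to mm10. How reads were counted, with which annotation and whether by strand, is not given in the sources used here. Values in the deposited table are raw counts, checked to be whole numbers. Its columns were matched to groups only, so libraries are named by their table number.

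The 10 genes, the gene lists and the tests were chosen with earlier results of these data known. Counts were scaled by TMM, filtered with filterByExpr and fitted in edgeR 4.0.16 (R 4.3.3) with a robust quasi-likelihood model of all 32 libraries and 1 mean per group. SEs and 95% intervals were derived from the fold change and the F statistic. Adjusted p-values are edgeR values over 17121 genes unless another tool is named. Groups with 0 counts were set to a floor of 3 counts per group. Groups with 1 to 3 counts get a ratio with an exact interval. Floors and intervals cover counting error only. The comparisons numbered 15, of which 3 were differences of differences.

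All 10 genes are described, with changes from uninjured muscle to day 35 and differences of differences given for Cd3e only. From each other list, at most 4 called genes with the smallest p could be named, and others are marked as looked up afterwards. For likeness, the 5 protein-coding genes with the highest Pearson correlation of log2 CPM (prior count 2) were named among those averaging 0.5 CPM or more. Alternatives were library size alone, DESeq2 1.42.0, limma voom (limma 3.58.1), a filter of 1 CPM in 4 libraries, no filter, and each library left out in turn. No 2 libraries of a group were alike within counting noise. The code was tested on simulated data.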

Additional observations from a re-analysis of the deposited data

Results flagged for a closer look

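In 5 of the 42 sets of 4 libraries of a gene and group that were examined, 1 library stood far from the other 3 by Dixon's criterion for 4 samples. For normally distributed values chance gives about 1 in 20. Sets were examined only where a library held at least 10 counts, which favours sets with 1 high library. That rate therefore need not hold here, and no excess is read from the 5. Cd3e stood at 1.08 CPM in BI01 library 6 at day 35, against 0.430 to 0.523 in the others. Foxp3 was at 0 in young uninjured library 1, against 0.801 to 0.965, and at 1.23 CPM in old vehicle library 7 at day 35, against 0.141 to 0.254. Nkg7 stood at 6.84 CPM in old vehicle library 9 at day 7, against 0.941 to 1.75. Il2rb stood at 0.737 CPM in old vehicle library 7 at day 35, against 0 to 0.0635. The part of the library in these values was not tested.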

How the results depend on the processing

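The low counts of the members limit most comparisons outside day 7. The number of members called changed by over 1.5 times in 3 comparisons. It was 1 in the edgeR fit and 0 with limma voom in old vehicle muscle at day 35 against uninjured, and 0 in edgeR but 1 with DESeq2 and 1 with limma voom in the age difference at day 7. Leaving out each library in turn gave 0 to 1 in these 2 and in old against young uninjured muscle, and no other such count moved so far.

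Directions reversed only for differences that were not called. With library size alone these were, for old vehicle day 7 against uninjured, Cd3e 0.90 and Foxp3 0.97, for day 35 against day 7 Foxp3 -0.92 (old vehicle) and -0.54 (BI01), and for BI01 at day 7 Il2rb -0.057. With DESeq2 they were Cd3e 0.018 and Foxp3 0.066 at old day 7, Foxp3 -0.064 at old day 35 against day 7 and Il2rb -0.027 for BI01 at day 7. With limma voom they were Cd3e 0.28 (young day 35 against uninjured), Foxp3 -0.36 (old day 35 against day 7), 0.22 (old against young uninjured) and 0.25 (BI01 at day 35). At day 7 voom gave Gzmb -0.18 and Nkg7 -0.0041 for old against young, and Cd3g -0.84, Cd8a -0.38 and Il2rb -0.16 for BI01. Il2rb for BI01 at day 7 was -0.0037 with the filter of 1 CPM in 4 libraries and -0.000095 with no filter. The cause was not tested.

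With 1 library left out, ranges that crossed 0 were, at day 7 against uninjured, Foxp3 -0.26 to 0.73 (young), Cd3e -0.32 to 0.14 and Foxp3 -0.26 to 0.13 (old), and at young day 35 against uninjured Cd3e -1.36 to 0.070. From day 7 to day 35 they were Cd3g -1.51 to 0.11 and Foxp3 -0.86 to 0.26 (young) and Foxp3 -1.23 to 0.32 (old). For old against young at day 7, Nkg7 ran from -0.60 to 0.68. For BI01 at day 7 they were Cd3g -0.45 to 0.50, Cd4 -0.19 to 0.57, Cd8a -0.26 to 0.44, Nkg7 -0.043 to 1.45 and Il2rb -0.52 to 0.30. For BI01 at day 35 they were Cd4 -0.24 to 0.88, Cd8a -0.24 to 1.64, Foxp3 -0.50 to 1.04 and Nkg7 -1.02 to 1.23, and for the BI01 difference between days Cd3e -0.015 to 0.70.

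Uninjured and day 35 groups share table numbers. Same-numbered libraries had correlations of their deviations from -0.03 to 0.161, not over 0.1 in every pair. For young numbers 1, 3 and 4 and old numbers 8 and 9 they exceeded every correlation with another number. For young number 2 and old numbers 6 and 7 they did not. Whether the numbers mark pairs is therefore not settled, and the main fit took none. The replicate block of table numbers, added after seeing the data, called 0 members in young muscle, 1 in old (Cd3e -2.50, adjusted p = 0.0238) and 0 in the age difference at day 35. All-gene calls were 3996, 1612 and 7 with the block and 2691, 966 and 0 without. No paired analysis was possible by the replicate numbers of the sample labels because columns could not be matched to single samples.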
